A study of Mus musculus with 16 samples.

Results

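Immediate early transcription factors are the genes a cell switches on first when a signal or an injury reaches it, and the Gadd45 genes are their companions in the response to stress. Their promoters are read within minutes by factors that mitogen-activated protein kinases (MAPKs) and cyclic AMP signalling activate, no new protein is needed for it, and the messages are short-lived. FOS and JUN proteins pair to form the transcription factor AP-1. The 3 GADD45 proteins bind the replication clamp PCNA and the CDK1-cyclin B1 kinase, and they activate MAP3K4, a kinase at the head of the p38 and JNK pathways. In injured lung these genes are known as early markers of oxidant stress.

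The 10 genes described here are the AP-1 subunits Fos, Fosb, Jun and Junb, the zinc finger factor Egr1, the CREB/ATF family member Atf3, the survival gene Ier3, and Gadd45a, Gadd45b and Gadd45g. They were found by gene name among the array's probes, which gave 12 probes for 10 genes of 21629 tested, and every one of the 12 was well above background on all 16 arrays. Fos and Jun were each printed in 10 spots per array, and Junb and Gadd45b each had a pair of probes. Whole lungs of inbred BALB/c pups aged 3 days were measured, 1 lung per array and 4 lungs per group. The groups were ozone at 1000 ppb for 3 h with collection 6 h later, filtered air for 3 h with collection 6 h later, and the same exposures, ozone and air, with collection 24 h later. Air pups were littermates, all pups were cross-fostered so that a dam was present during exposure, and lungs used on arrays were drawn at random from larger groups. The time points were run apart, on separate slides scanned on separate days, so time and run cannot be told apart and levels at 6 h and 24 h are set side by side without a test.

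A level is given as log2 of the processed signal of a probe minus log2 of the 75th percentile of its array, so 0 is the signal at that percentile and 1 unit is a 2-fold step. Levels of different probes cannot be compared with each other. Differences are ozone minus air on that log2 scale with their standard error (SE), from a fit by limma over all genes with Benjamini-Hochberg adjustment, and a gene was called at an adjusted p under 0.05. The 75th percentile of signal lay between 573.8 and 946.2 per array, and the share of spots rated well above background was 65.0% to 83.9%, with ozone replicate 3 of 6 h at the top. All 14 markers of lung tissue were above background, and none was called at either time. Among markers of other cells, at 6 h 1 of 8 squamous epithelial markers was called lower, and at 24 h 4 of 9 lymphocyte, 2 of 11 macrophage and 1 of 10 cardiac muscle markers were called higher and 1 of 6 erythroid markers lower, while none of 10 neutrophil and 8 smooth muscle markers was called. Over all genes, 1.36% were called higher and 3.12% lower at 6 h, and 0.684% higher and 1.32% lower at 24 h.

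The upstream sequences of 4 of the genes are shown because Fos, Junb and Atf3 had the highest correlations among lungs of a group, and Gadd45b was the gene called with ozone. Each is the 250 bases before the gene's start, 5′ to 3′ on the strand of the gene, from RefSeq on GRCm38.p6. Capitals mark TGACG or its reverse complement, the core of the element that CREB and ATF proteins bind, and TATAAA, the core of a TATA box.
Fos, chr12:85473640-85473889, plus strand: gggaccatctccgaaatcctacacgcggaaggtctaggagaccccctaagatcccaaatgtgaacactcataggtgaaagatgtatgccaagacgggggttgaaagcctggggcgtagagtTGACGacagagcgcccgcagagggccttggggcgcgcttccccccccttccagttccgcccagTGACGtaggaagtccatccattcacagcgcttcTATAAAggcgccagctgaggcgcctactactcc
Junb, chr8:84978749-84978998, minus strand: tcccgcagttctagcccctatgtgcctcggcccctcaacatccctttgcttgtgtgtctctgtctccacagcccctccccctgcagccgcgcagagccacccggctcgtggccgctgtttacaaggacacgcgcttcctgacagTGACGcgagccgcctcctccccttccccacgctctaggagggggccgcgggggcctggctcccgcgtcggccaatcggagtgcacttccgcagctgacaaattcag
Atf3, chr1:191183334-191183583, minus strand: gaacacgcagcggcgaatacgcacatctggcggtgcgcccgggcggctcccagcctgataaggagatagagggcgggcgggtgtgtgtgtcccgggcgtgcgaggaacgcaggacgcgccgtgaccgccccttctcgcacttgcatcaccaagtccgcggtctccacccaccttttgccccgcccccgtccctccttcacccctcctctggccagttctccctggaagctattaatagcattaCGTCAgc
Gadd45b, chr10:80929841-80930090, plus strand: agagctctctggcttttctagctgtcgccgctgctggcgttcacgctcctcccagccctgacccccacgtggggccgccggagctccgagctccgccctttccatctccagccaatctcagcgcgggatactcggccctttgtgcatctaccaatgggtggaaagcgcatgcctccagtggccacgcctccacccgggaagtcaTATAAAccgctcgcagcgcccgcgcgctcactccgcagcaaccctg
RefSeq sequences were used for 9 of the 10 genes. No Egr1 window was searched, so the motif counts say nothing about Egr1. On either strand, TGACG was found in 4 of the 9 windows, those of Fos, Fosb, Junb and Atf3, against 17.8% of 32851 mouse promoters of the same length. Fos held it at both 129 and 66 bases before the start, Junb at 106, and Atf3 on the opposite strand at 7. TATAAA was found in 3 of the 9 (Fos, Gadd45b and Gadd45g), against 12.4% of all promoters. The AP-1 element TGACTCA was in 0 of 9, against 4.46% of all, and the CArG box, which serum response factor binds, was also in 0 of 9, against 1.47%. An NF-kB motif was in 3 of the 9 windows (Fos, Fosb and Ier3), against 3.9% of all promoters. These motifs do not overlap each other in the windows shown. A match is a stretch of letters and no evidence of binding, and a window without one says nothing about the factor.

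At 6 h after exposure, Gadd45b was the only one of the 10 genes called. Its level was 3.17, 2.94, 3.09 and 2.98 in the 4 ozone lungs, against 2.80, 2.52, 2.24 and 2.37 in the 4 air lungs. Every ozone lung lay above every air lung, as in 4.61% of all genes. Gadd45b, the family member known to be induced by NF-kB and TGF-beta signalling, was 1.48-fold higher with ozone, a log2 difference of 0.56 ± 0.12 (SE, n = 4 per group, limma adjusted p = 0.0157). The 95% interval of the difference was 0.32 to 0.81. Its probe covers chr10:80394890-80394949 of build mm9, and the other Gadd45b probe lies 463 bases away at chr10:80394367-80394426, both on the plus strand.

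The other Gadd45b probe gave the same direction. It had 1.61, 1.83, 1.71 and 1.70 in ozone lungs and 1.51, 1.41, 1.09 and 1.19 in air lungs of 6 h, again without overlap. With each probe tested on its own, the difference was 0.41 ± 0.11 (limma adjusted p = 0.04996). Over all genes, 970 were called at 6 h (4.48%), 1.36% higher and 3.12% lower, and the 1 of 10 members is not read as a result about the group. With another background correction (normexp) the calls over all genes were 152 higher and 801 lower, in place of 295 higher and 675 lower. Within the pair of slides of 6 h, each with 2 ozone and 2 air lungs, the Gadd45b difference was 0.40 on slide 1 and 0.73 on slide 2, and neither passed on its own (limma adjusted p = 0.633 and 0.116). On either slide alone 0 of all genes were called, so the missing call there is not particular to Gadd45b. With the slide as a block the limma adjusted p of Gadd45b was 0.0179. Gadd45b lost its call without air replicate 4 of 6 h (difference 0.53, limma adjusted p = 0.0703) and with only the 8 arrays of 6 h in the fit (limma adjusted p = 0.0594). In whole lung, more cells of a type and more RNA per cell cannot be told apart.

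**Figure D1:**
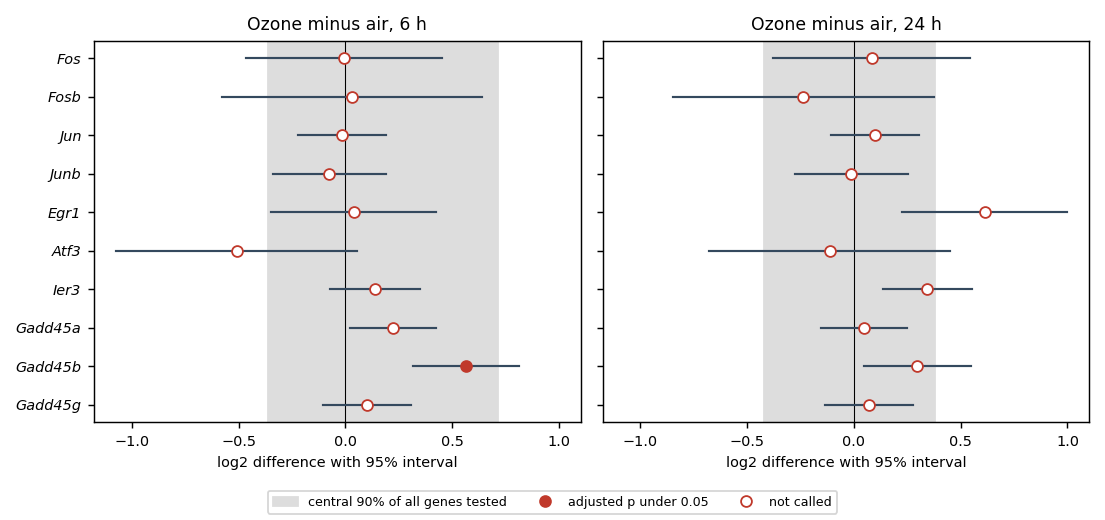
Ozone minus air for the 10 genes at 6 h (left) and 24 h (right), as log2 differences with 95% intervals (n = 4 lungs per group); the grey band is the central 90% of all genes tested. Only Gadd45b at 6 h, at 0.56, is called, and the intervals of Gadd45a at 6 h and of Egr1, Ier3 and Gadd45b at 24 h lie above 0 without a call after adjustment.

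Gadd45a and Gadd45g, the other members of that family, were not called. Gadd45a, a p53 target that acts in growth arrest, had 0.91, 1.00, 1.04 and 0.85 in ozone lungs and 0.87, 0.62, 0.56 and 0.85 in air lungs at 6 h. Its groups overlapped in the region from 0.85 to 0.87, and the difference was 0.22 ± 0.095 (limma adjusted p = 0.191; 95% interval 0.021 to 0.42). Gadd45g, induced by cytokines and differentiation signals, spanned 3.27 to 3.37 in ozone lungs and 3.02 to 3.39 in air lungs, with a difference of 0.100 ± 0.098 (limma adjusted p = 0.576). Whether the 3 genes of the family differed from each other in their response was not tested.

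Atf3, a stress-induced factor that mostly represses its targets, was lower in every ozone lung at 6 h without being called. Its level was -1.84, -1.38, -1.86 and -1.40 in ozone lungs, against -1.26, -1.15, -0.90 and -1.14 in air lungs. All 4 ozone lungs lay below all 4 air lungs, a separation that 4.87% of all genes showed in that direction and 9.48% in either. The fold was 0.703 and the log2 difference -0.51 ± 0.27 (limma adjusted p = 0.288; 95% interval -1.07 to 0.056). It was -0.41 within slide 1 and -0.61 within slide 2.

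The AP-1 subunits and Egr1 lay close to air at 6 h. Fos had -1.84, -1.88, -1.79 and -1.62 in ozone lungs and -2.03, -1.84, -1.57 and -1.66 in air lungs, with a difference of -0.0075 ± 0.22 (limma adjusted p = 0.988). The 95% interval of that difference was -0.47 to 0.45. Spread between the 10 Fos spots of an array had a median SD of 0.085, against an SD between lungs of 0.11 with ozone and 0.20 in air. Egr1, a zinc finger factor of growth and injury responses, had 0.079, -0.16, 0.27 and 0.20 in ozone lungs and -0.11, 0.16, 0.34 and -0.17 in air lungs. The groups interleaved, and the difference was 0.040 ± 0.18 (limma adjusted p = 0.917; 95% interval -0.35 to 0.43).

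Jun, the AP-1 partner that can also pair with itself, spanned 1.63 to 1.91 in ozone lungs and 1.62 to 1.93 in air lungs at 6 h, and its interval was the narrowest of the subunits, -0.22 to 0.19. Junb, a subunit that often restrains JUN, spanned 3.92 to 4.08 in ozone lungs and 3.99 to 4.12 in air lungs. Its interval was -0.34 to 0.19. The Junb probes lie at chr8:87500881-87500940 and chr8:87500843-87500902 of mm9, minus strand, and share 22 bases, ttcgtgtctaaagtctatttta, so they are not independent measurements. The second Junb probe had a difference of -0.067 ± 0.12. Fosb, a close relative of Fos, was low on this array, spanning -4.71 to -3.70 in ozone lungs and -4.79 to -3.69 in air lungs. Its spread at 6 h followed the slide, with -4.31 and -4.71 in ozone lungs and -4.79 and -4.34 in air lungs on slide 1, against -3.70 and -3.78 in ozone lungs and -3.69 and -3.80 in air lungs on slide 2. Ier3, which protects cells from death and is an NF-kB target, spanned 1.53 to 1.78 in ozone lungs and 1.39 to 1.63 in air lungs, with a difference of 0.14 ± 0.099 (limma adjusted p = 0.438).

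**Figure D2:**
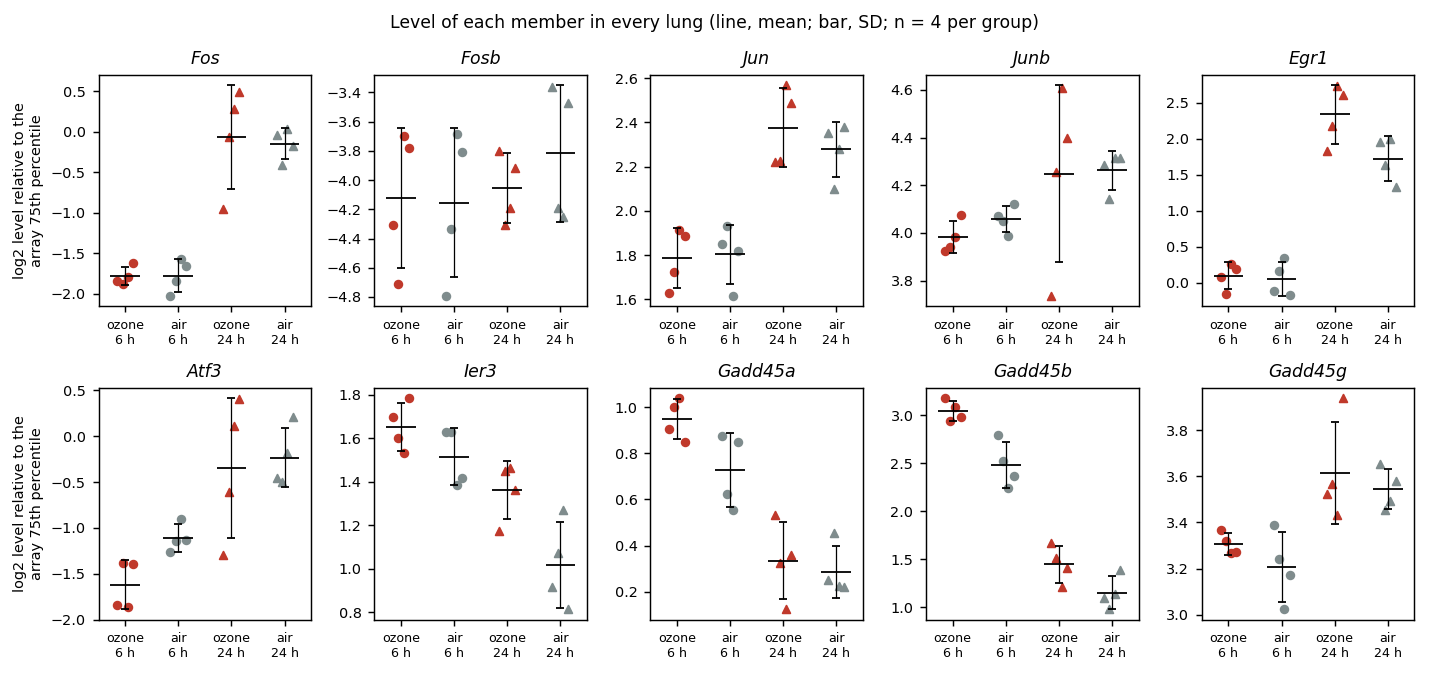
Level of each gene in every lung, as log2 relative to the 75th percentile of its array, with ozone in red and air in grey, the mean as a line and the SD as a bar (n = 4 per group); each panel has its own vertical axis. Gadd45b ozone lungs of 6 h (2.94 to 3.17) sit above the air lungs of 6 h (2.24 to 2.80), and Fos, Junb, Egr1 and Atf3 spread widely in the ozone lungs of 24 h.

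At 24 h after exposure none of the 10 genes was called. At an unadjusted p under 0.05, 3 of the 10 passed in the limma fit (Egr1, Ier3 and Gadd45b), against 13.3% of all genes, and 434 of all genes were called after adjustment (2.01%). Egr1 had 1.84, 2.18, 2.73 and 2.61 in ozone lungs, against 1.96, 1.63, 1.99 and 1.33 in air lungs. Only ozone replicate 1 lay within the range of the air lungs, and the other 3 ozone lungs lay above it. Egr1 was 1.53-fold of air, a log2 difference of 0.61 ± 0.18 (95% interval 0.23 to 0.999; limma adjusted p = 0.109). Without ozone replicate 1 the difference was 0.78 and passed (limma adjusted p = 0.0265). It also passed with normexp background correction (0.66, limma adjusted p = 0.0291) and with array weights (0.70, limma adjusted p = 0.00881). These were its only calls, in 1 of 16 fits that each left out 1 lung and 2 of 16 other settings. Normexp and array weights also called more of all genes at 24 h, 652 and 1738 in place of 434. Within the slides of 24 h the Egr1 difference was 0.22 on slide 3, which holds ozone replicate 1, and 1.01 on slide 4.

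Ier3 had 1.18, 1.45, 1.46 and 1.36 in ozone lungs and 0.92, 1.07, 1.27 and 0.81 in air lungs at 24 h. Ozone replicate 1 fell below the highest air lung, and the other 3 ozone lungs were above all air lungs. The fold was 1.27 and the log2 difference 0.34 ± 0.099 (95% interval 0.13 to 0.55; limma adjusted p = 0.0938), with 0.32 within slide 3 and 0.37 within slide 4. It passed without air replicate 3 of 24 h (0.43, limma adjusted p = 0.0346) and with array weights (0.39, limma adjusted p = 0.00438). Ier3 was thus called in 1 of 16 fits that each left out 1 lung and in 1 of 16 other settings.

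Gadd45b at 24 h had 1.67, 1.51, 1.21 and 1.41 in ozone lungs and 1.096, 0.98, 1.14 and 1.39 in air lungs. The groups overlapped through air replicate 4, and the difference was 0.30 ± 0.12 (limma adjusted p = 0.255), with 0.55 within slide 3 and 0.044 within slide 4. On the other probe it was 0.14 ± 0.11 (limma adjusted p = 0.732). The lymphocyte markers had a mean level, averaged before log2 was taken, of -0.42 to 0.10 in ozone lungs and -1.002 to -0.71 in air lungs at 24 h. They moved in the same comparison as Egr1, Ier3 and Gadd45b, and their part in these differences was not tested.

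Fos at 24 h had -0.96, -0.068, 0.28 and 0.49 in ozone lungs and -0.040, -0.41, 0.032 and -0.17 in air lungs. Ozone lungs lay on both sides of the air lungs, and the difference was 0.083 ± 0.22 (95% interval -0.38 to 0.54). Atf3 showed the same layout, with -1.29, -0.61, 0.11 and 0.40 in ozone lungs and -0.45, -0.50, -0.19 and 0.21 in air lungs, and a difference of -0.11 ± 0.27 (95% interval -0.68 to 0.45). Junb had 3.74, 4.25, 4.61 and 4.40 in ozone lungs and 4.28, 4.14, 4.31 and 4.31 in air lungs, with a difference of -0.014 ± 0.13. For Fosb, Jun, Gadd45a and Gadd45g the intervals of the difference at 24 h were -0.85 to 0.37, -0.11 to 0.31, -0.15 to 0.25 and -0.14 to 0.28, all holding 0.

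The change of the ozone difference between the times was called for none of the 10 genes and for 14 of all genes in the limma fit (0.0647%). At an unadjusted p under 0.05 it passed for 1 member, Egr1, against 12.5% of all genes. Egr1 had the largest value among the members, 0.57 ± 0.26 (24 h minus 6 h; 95% interval 0.026 to 1.12; limma adjusted p = 0.373). For Gadd45b it was -0.27 ± 0.17 (limma adjusted p = 0.532), so a difference in its response between 6 h and 24 h was not shown.

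Among the ozone lungs of 24 h, Fos, Junb and Atf3 were more spread than in any other group. Egr1, Jun, Gadd45a and Gadd45g also had their largest SD there, at 0.41, 0.18, 0.17 and 0.22. The SD of Fos was 0.64 in ozone lungs and 0.19 in air lungs, that of Atf3 was 0.76 in ozone lungs and 0.33 in air lungs, and that of Junb was 0.37 in ozone lungs and 0.082 in air lungs. For comparison, the median SD of all genes was 0.16 in ozone lungs and 0.14 in air lungs of 24 h. The SDs of Fos, Atf3, Egr1 and Junb in the ozone lungs exceeded those of 94.99%, 96.3%, 89.0% and 86.9% of all genes there. No test of unequal spread was made. Ozone replicate 1 was lowest in Fos, Junb, Egr1 and Atf3, at 1.19, 0.68, 0.67 and 1.26 below the mean of the other 3 ozone lungs on the log2 scale, and it was the lowest ozone lung of 24 h in Ier3 and Jun too. It was lower than that mean in 7 of the 10 genes, while the median of all genes was 0.084 higher. Fosb, Gadd45a and Gadd45b were higher in that lung, by 0.34, 0.26 and 0.29.

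Deviations of each lung from its own group mean show which members varied together once the mean ozone difference is removed. An unequal response among ozone lungs would remain in these deviations, and its part was not tested. Over 16 lungs the highest of the 45 pairs was Fos with Junb (Pearson's r = 0.869, permutation p = 0.0209, adjusted over the 45 pairs 0.188; Spearman's rho = 0.700, permutation p = 0.0120, adjusted 0.180). Fos with Atf3 followed (r = 0.839, permutation p = 0.00808, adjusted 0.121; rho = 0.626, permutation p = 0.0336, adjusted 0.216), then Junb with Atf3 (r = 0.792, permutation p = 0.0384, adjusted 0.200; rho = 0.668, permutation p = 0.0337, adjusted 0.216) and Fos with Egr1 (r = 0.751, permutation p = 0.00747, adjusted 0.121; rho = 0.75, permutation p = 0.00697, adjusted 0.180). No pair passed after adjustment. Leaving out the pair of lungs farthest from the median of Fos gave r of 0.677, 0.523 and 0.650 for Fos with Junb, Atf3 and Egr1, and r of Junb with Atf3 was 0.589 without the pair of lungs farthest from the median of Junb. For the 3 pairs with Fos, r without ozone replicate 1 of 24 h was 0.681, 0.706 and 0.656, and with the slide removed as well as the group it was 0.753, 0.619 and 0.587. Among the 8 lungs of 24 h the 3 values were 0.928, 0.881 and 0.816, and among the 8 lungs of 6 h they were 0.200, 0.506 and 0.520.

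**Figure D3:**
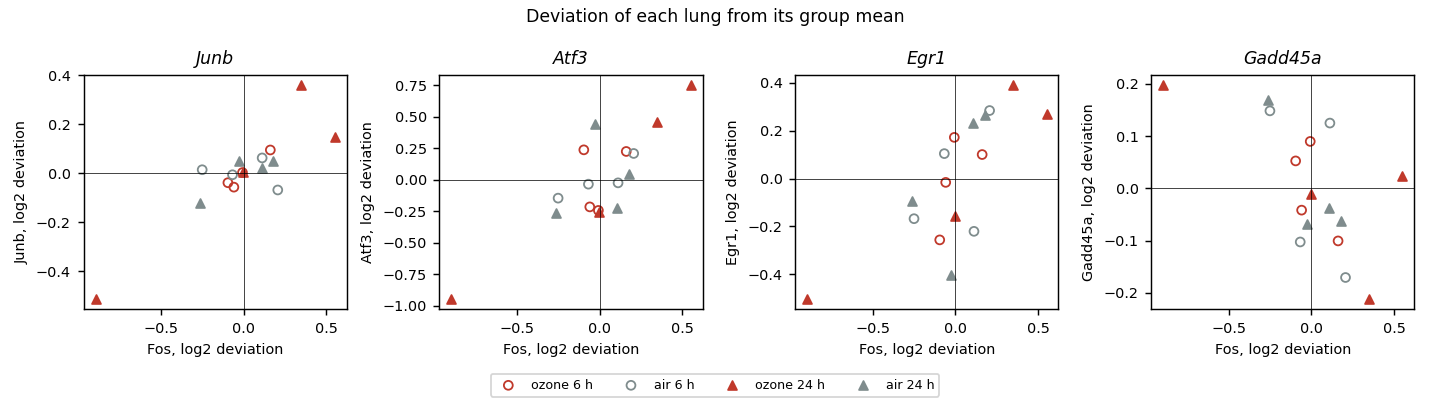
Deviation of each of the 16 lungs from its group mean, Fos on the horizontal axis and Junb, Atf3, Egr1 and Gadd45a on the vertical axes, all in log2 units; open circles are 6 h and filled triangles 24 h, with ozone in red and air in grey. Junb (r = 0.869), Atf3 (0.839) and Egr1 (0.751) slope upward and Gadd45a (-0.632) slopes downward, with ozone replicate 1 of 24 h at the far left of each panel.

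Gadd45a and Gadd45b sloped the other way against Fos. Gadd45a against Fos gave r = -0.632 (permutation p = 0.0381, adjusted over the pairs 0.200; rho = -0.597, permutation p = 0.0421, adjusted 0.233), and r was -0.745 without the pair of lungs farthest from the median of Fos. Gadd45b against Fos gave r = -0.546 (permutation p = 0.0557, adjusted 0.222; rho = -0.491, permutation p = 0.0918, adjusted 0.376). Of the 45 pairs, 28 had a positive r and 17 a negative one. The lowest r was that of Fosb with Ier3 (-0.651, permutation p = 0.0205, adjusted 0.188), and it was -0.716 with the slide removed as well. Jun with Junb had the smallest permutation p (r = 0.669, permutation p = 0.00199, adjusted 0.0895), and r was 0.357 with the slide removed as well.

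The genes most like Fos over these deviations, of 21629 searched, were Ccn1 (r = 0.933), Junb (0.869), Dusp1 (0.865), Atf3 (0.839) and Nr4a1 (0.838). Clone and predicted names were passed over in picking the 5 genes named for Fos and for Gadd45g. Ccn1 encodes a secreted matrix protein, Dusp1 a phosphatase that switches MAPKs off, and Nr4a1 an orphan nuclear receptor. With the slide removed as well, these values were 0.927, 0.753, 0.665, 0.619 and 0.718. With all names counted, Egr1 ranked 26 in likeness to Fos and Jun 753. For Gadd45g the 5 most alike were Gpd1 (0.811), Col17a1 (0.764), Mon1b (0.758), Hk2 (0.756) and Depp1 (0.746), none of them a member, and Gadd45b ranked 841 (0.441). These values are a description over 16 arrays that share slides and scaling.

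Members differed in direction between the times, in ozone and air lungs alike. Fos averaged -1.78 at 6 h and -0.065 at 24 h in ozone lungs, and -1.77 at 6 h and -0.15 at 24 h in air lungs, a 3.09-fold higher level at 24 h in air. Egr1 was 4.74-fold higher at 24 h in ozone lungs and 3.19-fold in air lungs. Jun and Gadd45g were 1.39-fold and 1.26-fold higher at 24 h in air lungs. For these 4 genes all 8 lungs of 24 h lay above all 8 lungs of 6 h, as 10.9% of all genes did.

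Gadd45b and Gadd45a were lower at 24 h, at 0.330-fold and 0.654-fold of the 6 h level in ozone lungs and 0.398-fold and 0.737-fold in air lungs. All 8 lungs of 24 h lay below all 8 lungs of 6 h, as 16% of all genes did. The second Gadd45b probe gave 0.616-fold in air lungs. Atf3, Ier3, Fosb and Junb overlapped between the times. Their log2 differences of 24 h from 6 h were 1.27, -0.29, 0.0695 and 0.27 in ozone lungs and 0.88, -0.50, 0.34 and 0.20 in air lungs. The second Junb probe was -0.11 in ozone lungs and -0.11 in air lungs, and 0.079 in air lungs with quantile normalization. Over all genes the median in air lungs was 0.015, with 5% of genes below -1.02 and 5% above 0.999. Fos, Egr1 and the first Gadd45b probe lay outside that range in air lungs. The second Gadd45b probe, at -0.70 in air lungs, lay inside it. Since the pups of the time points were run separately, these differences cannot be told apart from the run.

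**Figure D4:**
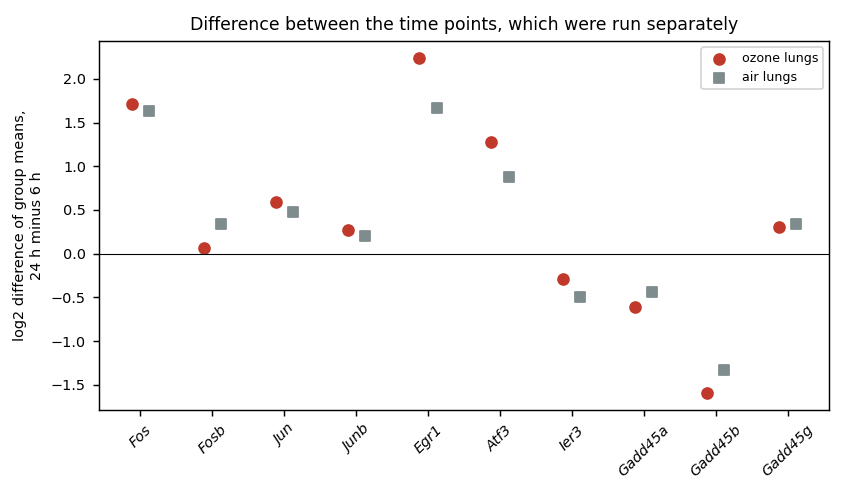
Difference of group means between the time points, 24 h minus 6 h on the log2 scale, for ozone lungs (red circles) and air lungs (grey squares) of each gene. Fos (1.72 and 1.63) and Egr1 (2.24 and 1.67) are highest and Gadd45b (-1.60 and -1.33) is lowest in both exposures.

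Of 16 further genes of the AP-1 and ATF family, 0 were called higher and 1 lower at 6 h, where 1.36% of all genes were called higher and 3.12% lower. None was called at 24 h, where 2.01% of all genes were called, and 1 of the 16 had an unadjusted limma p under 0.05, against 13.3% of all genes. These counts are near the shares of all genes and are not read as a result about the family. The gene called was Batf3, an AP-1 family factor needed for a class of dendritic cells, which averaged -2.19 in ozone lungs and -1.51 in air lungs of 6 h (difference -0.67 ± 0.094, limma adjusted p = 0.00152), and with normexp background correction the difference was -0.39 and was not called (limma adjusted p = 0.0703). At 24 h Batf3 averaged -1.24 in ozone lungs and -1.43 in air lungs (0.19 ± 0.094, limma adjusted p = 0.399). The change between those differences was itself called (0.87 ± 0.13, limma adjusted p = 0.0271), and that call held in 10 of 16 fits that each left out 1 lung. It was lost with normexp (0.39, limma adjusted p = 0.169). Median differences of the list were 0.031 at 6 h and 0.017 at 24 h, beside 0.072 and 0.024 over all genes.

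Of 40 further immediate early genes tested among 42 listed, 0 were called higher and 1 lower at 6 h, and none was called at 24 h, against 4.48% and 2.01% of all genes called. At an unadjusted limma p under 0.05 there were 10 of the 40 at 6 h and 12 at 24 h, against 21% and 13.3% of all genes. The gene called was Id1, an inhibitor of helix-loop-helix factors, at 4.19 in ozone lungs and 4.54 in air lungs (difference -0.35 ± 0.075, limma adjusted p = 0.0171). Id1 lost its call with normexp (-0.33), with only the 6 h arrays, without ozone replicate 2 (-0.31) or air replicate 4 (-0.30) of 6 h and on its other probe (-0.30), at limma adjusted p of 0.0510 to 0.0872. Srf, the factor that drives many immediate early promoters, had differences of -0.28 ± 0.086 at 6 h and 0.31 ± 0.086 at 24 h and passed at neither time (limma adjusted p = 0.0702 and 0.0794). The change between them was 0.59 ± 0.12 (limma adjusted p = 0.0734). Nr4a1 had -0.83 at 6 h (limma adjusted p = 0.0871) and 0.051 at 24 h. The list's median differences were -0.016 at 6 h and 0.022 at 24 h.

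Genes that end immediate early signalling numbered 15 tested of 16 listed, with 0 called higher and 1 lower at 6 h and none called at 24 h, against 4.48% and 2.01% of all genes called. At 24 h 3 of the 15 had an unadjusted limma p under 0.05, against 13.3% of all genes. Dusp1 averaged 2.22 in ozone lungs and 3.01 in air lungs of 6 h (difference -0.80 ± 0.20, limma adjusted p = 0.0334). The call held in 11 of 16 fits that each left out 1 lung, and every such fit without it had left out a lung of 6 h. The Dusp1 call was also lost with quantile normalization (-0.74), in the authors' deposited table (-0.76), with Xist as a covariate (-0.74), without the trend and with only the 6 h arrays. Zfp36, which destabilizes short-lived messages, had 0.30 ± 0.15 at 6 h (limma adjusted p = 0.256). Of 19 genes upstream of the response, 20 being listed, 0 were called higher and 1 lower at 6 h and none at 24 h, against 4.48% and 2.01% of all genes called. At 24 h 1 of the 19 had an unadjusted limma p under 0.05, against 13.3% of all genes. The gene called at 6 h was Crem, a modulator of cyclic AMP responses (-0.35 ± 0.076, limma adjusted p = 0.0190). Of its other probes, 2 had the same sign (-0.31 and -0.30) and 1 the opposite (0.17), and none of these was called. The call was lost with the mean of the probes (-0.25, limma adjusted p = 0.128), with normexp (-0.27), with only the 6 h arrays and without ozone replicate 3 (-0.32) or air replicate 4 (-0.31) of 6 h.

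Among 9 partners of the GADD45 proteins, 1 was called higher and 2 lower at 6 h, where 1.36% of all genes were called higher and 3.12% lower, and 0 higher and 3 lower at 24 h, where 0.684% of all genes were called higher and 1.32% lower. Pcna averaged 4.01 in ozone lungs and 4.82 in air lungs at 6 h (difference -0.80 ± 0.092, limma adjusted p = 0.000449), and 4.09 in ozone lungs and 4.47 in air lungs at 24 h (-0.38 ± 0.092, limma adjusted p = 0.0385). The 24 h call of Pcna held in 9 of 16 fits that each left out 1 lung, and it was lost with normexp (-0.28), with Xist as a covariate (-0.35), without the trend, without the filter on dim probes and with only the 24 h arrays. Cdk1 had -0.65 ± 0.11 at 6 h (limma adjusted p = 0.003515) and -0.97 ± 0.11 at 24 h (limma adjusted p = 0.000184), though another Cdk1 probe gave 0.58 at 6 h and -1.18 at 24 h and was called at neither time, and with the mean of the probes Cdk1 was not called at 6 h (-0.033) or 24 h (-1.07). Ccnb1, the cyclin partner of CDK1, averaged -0.77 in ozone lungs and 0.16 in air lungs at 24 h (-0.93 ± 0.12, limma adjusted p = 0.000376) and was not called at 6 h (-0.26 ± 0.12). Trp73, a p53 relative, was the 1 called higher at 6 h (0.50 ± 0.12, limma adjusted p = 0.0317), in 12 of 16 fits that each left out 1 lung. Every such fit without that call had left out a lung of 6 h. That call was lost with normexp (0.47), quantile normalization (0.40), the authors' deposited table (0.40), the mean of the probes (0.40), Xist (0.44) and only the 6 h arrays, and the other Trp73 probe gave 0.30 (limma adjusted p = 0.302). Map3k4, Tdg, Trp53, Cdkn1a and Mapk14, the remaining partners, were called at neither time. Cdkn1a encodes the cell cycle inhibitor p21.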

How the data were processed

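Whole-lung RNA of 16 pups was measured on 1-colour Agilent arrays. Per the file headers, the deposited intensity values on a linear scale came from Agilent Feature Extraction 10.7.1.1, with background subtracted, and probe positions are on mm9. The deposited files also hold other values, namely flags for dim, uneven and saturated spots (no spot was saturated). The authors' deposited log2 table, quantile normalized within each time point, served as an alternative.

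Spots of a probe were averaged without control and uneven spots, log2 was taken, and the 75th percentile over 41174 probes was subtracted. A probe had to exceed background clearly on 4 or more of 16 arrays (32340 did), with 157 lacking a value on some array left out, and per gene the probe with the highest mean. Names came from a RefSeq table, by accession for 25097 probes, symbol for 6333 and synonym for 1640, and the file's name was kept for 8104. The comparisons used limma 3.58.1 under R 4.3.3 (lmFit, eBayes with trend, 1 mean per group, two-sided, Benjamini-Hochberg over 21629 genes). Replicates were separate mice. The number of arrays limits precision (median SE 0.13). In simulated data on 21629 genes, 1.5-fold changes were recovered in 54% at 6 h and 51% at 24 h, and 2-fold changes in 77% and 78%. Correlations used 100000 permutations within groups. The members, the gene lists and the rule for named genes (per list and contrast up to 4 genes with the smallest p, and 5 most like Fos and Gadd45g) were chosen with earlier results of these data known. Maff and Mapk14 each stand in 2 lists. Alternatives covered background, scaling, filters, probe choice, slide, replicate number, Xist, array weights and left-out lungs. With 1 mean per group, leaving out a lung of 1 time cannot move the difference at the other time and changes only its SE and p.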

Additional observations from a re-analysis of the deposited data

Results flagged for a closer look

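Of 48 group values of the 12 probes, 1 had a lung set apart from the other 3 of its group by Dixon's criterion, where chance gives about 1 in 20. Gadd45a in air replicate 2 of 24 h was at 0.45, the next of the air lungs at 0.25, and the gap took 0.868 of the range of the group. The ozone minus air difference of Gadd45a was called in none of the fits run. The ozone difference of Batf3 differed between the times, by 0.87 (24 h minus 6 h, log2; limma adjusted p = 0.0271), being -0.67 ± 0.094 at 6 h and 0.19 ± 0.094 at 24 h. That call held in 10 of 16 fits that each left out 1 lung, and it was lost with normexp (0.39, limma adjusted p = 0.169).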

How the results depend on the processing

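The 10 members kept their direction and their side of the threshold in 865 of 936 values under the alternatives, 62 more changed sign while called under neither, 5 gained a call and 4 lost one, and none reversed while called. Many of the 936 values could not move, since leaving out a lung of 1 time leaves the difference at the other time as it was. The count of members called at 6 h (1) was 0 within slide 1, within slide 2, with only the 6 h arrays and without air replicate 4 of 6 h, so that leaving out single lungs gave 0 to 1. At 24 h (0) it was 1 with normexp, 2 with array weights, and 0 to 1 without single lungs (1 without ozone replicate 1 or air replicate 3). For the change between times it was 0 throughout. The Gadd45b difference at 6 h was 0.48 to 0.67 without single lungs and was called in 15 of 16 such fits. Leaving out a lung of 24 h cannot move this difference, so only the fits without a lung of 6 h bear on its size. The call was lost in 1 of those, without air replicate 4. In 17 other settings the Gadd45b difference at 6 h was 0.40 to 0.73 and called in 14 (limma adjusted p = 0.00445 to 0.633 over all). Over all genes, 6 h calls (970) were 247 with the replicate block, 558 with Xist, 546 without trend, 1814 with array weights, 100 with only the 6 h arrays, 0 within slide 1 or slide 2, and 196 to 1690 without single lungs (196 without air replicate 4 and 1690 without air replicate 2, and also 433 to 522 without ozone replicate 1, 2 or 3, and 621 without air replicate 1). Calls at 24 h (434) were 652 with normexp, 261 with the replicate block, 245 with Xist, 1738 with array weights, 1 within slide 3, and 264 to 530 without single lungs (264 to 282 without air replicate 1, 2 or 3 or ozone replicate 3 or 4). Calls for the change between times (14) were 550 with normexp, 37 with quantile normalization, 6 with the slide block, 1 with the replicate block, 4 without trend, 441 with array weights, and 0 to 263 without single lungs (263 without air replicate 2 of 6 h, 0 to 1 without air replicate 4 of 6 h or ozone replicate 1 or 2 or air replicate 1 or 2 of 24 h, and 5 to 8 without ozone replicate 2 or 3 or air replicate 3 of 6 h, or ozone replicate 3 or 4 or air replicate 4 of 24 h). Normexp gave 326 higher and 326 lower at 24 h, in place of 148 and 286, and moved the median of all genes at 24 h to -0.13, against 0.024. Other probes of Crem (0.17) and Cdk1 (0.58) had the opposite sign at 6 h. Same-numbered ozone and air lungs deviated together with r of 0.050 to 0.140 at 6 h and -0.0070 to 0.195 at 24 h, and 3 of the 8 numbers correlated best with their own, so the numbers were not taken as pairs and the replicate block changed no member's call. With that block Id1, Crem and Trp73 at 6 h and Pcna at 24 h lost their calls (limma adjusted p = 0.0646, 0.0699, 0.0641 and 0.105), as did the change of Batf3 between times (0.142). The causes of these movements were not tested, and dim probes such as Fosb are limited by signal over background.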
